A study of Mus musculus with 12 samples.

Results

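The enzymes that break down tryptophan were read from 13 probe sets of 7 genes, Ido1, Ido2, Tdo2, Afmid, Kmo, Kynu and Haao, out of 45101 probe sets and 18193 genes on a mouse whole-genome array. All probe sets that the platform annotation gives to these genes were taken, low signals included. The genes were chosen because Ido1 had differed between 2 of the 4 genotypes studied, arrays labelled Stat5a-/- and Stat5ab+/null, so values for that pair are a description and carry no test. The study profiled mammary tissue from 12 mice, 3 of each genotype and 1 array per mouse, taken 6 days after a mating plug. Single-Stat5b mice (labelled Stat5abnull/Stat5a-) kept 0 Stat5a alleles and 1 Stat5b allele, because the chromosome opposite the one without both genes lacked Stat5a. Single-Stat5a mice (labelled Stat5abnull/Stat5b-) kept 1 Stat5a allele and 0 Stat5b alleles. By their labels, Stat5a-/- mice had lost both copies of Stat5a with 2 of Stat5b left, and Stat5ab+/null mice kept 1 of each. All came from a mixed C57BL/6, FVB and 129 background. Each of the 4 groups had thus lost Stat5 alleles, and wild-type tissue is not analysed here. Ages are not in the labels. The treatment text common to all samples tells of PolyIC injection, which raises interferon, to switch on an Mx1-Cre transgene, and the descriptions speak of sorted cells, whereas the series design gives whole mammary tissue. The design was followed, and the labels leave unsettled whether injection applied to these animals.

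Most tryptophan that is not built into protein is degraded along the kynurenine route. Ido1, Ido2 and Tdo2 each open the indole ring, and Afmid, the arylformamidase, then releases kynurenine. Kmo adds a hydroxyl group to kynurenine, Kynu cleaves the product, and Haao opens its ring to give the precursor of quinolinate, from which Qprt leads on to NAD. Ido1 is known for its induction by interferon gamma in dendritic cells, macrophages and epithelia, where loss of tryptophan and gain of kynurenine restrain T cells. Tdo2 acts chiefly in liver. Stat5a and Stat5b carry the prolactin signal in mammary epithelium and are also activated by many cytokines in immune cells.

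The targeted genes did not settle every label. The brighter of the Stat5a probe sets averaged 10.98 ± 0.11 in single-Stat5b, 12.21 ± 0.34 in single-Stat5a, 10.30 ± 0.18 in arrays labelled Stat5a-/- and 9.91 ± 0.15 in Stat5ab+/null (log2 signal, SD, n = 3 each), so the arrays labelled Stat5a-/- were not below Stat5ab+/null. The other Stat5a probe set averaged 8.94 in arrays labelled Stat5a-/- and 8.37 in Stat5ab+/null. Both Stat5b probe sets were lower in arrays labelled Stat5a-/- (9.59 and 8.27) than in Stat5ab+/null (9.90 and 8.52), although the label gives Stat5a-/- the larger number of Stat5b alleles. All 4 probe sets thus went against the labels of this pair, which are used as given. The sample titles hold the letters ABB for arrays labelled Stat5a-/- and AAB for Stat5ab+/null, and what the letters stand for is not stated. No source used here places the probes relative to the deletions. Arrays fell into 2 sets, single-Stat5b with single-Stat5a and Stat5a-/- with Stat5ab+/null. Pearson r between arrays across probe sets was 0.818 to 0.883 between the sets and 0.948 to 0.994 within them. The actin control's 3' minus 5' signal, a mark of RNA or labelling quality, was 2.16 to 3.78 in the first set and 0.13 to 0.27 in the second. How many Stat5 alleles were left and which array set was used cannot be told apart, so levels compared across the sets carry both. Keratin genes of luminal epithelium were well measured in all 12 arrays (Krt8 averaged 13.19 in single-Stat5b, 12.88 in single-Stat5a, 13.53 in arrays labelled Stat5a-/- and 13.64 in Stat5ab+/null). The mean of 8 luminal markers did not overlap between the sets, at 10.79 to 11.90 in the first and 12.25 to 12.59 in the second. In the same order of genotypes, Cldn4 averaged 6.06, 5.46, 10.92 and 11.03, and Cdh1, which went the other way, 12.56, 12.14, 11.09 and 11.12.

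Ido1 was high in 1 genotype of the 4, Stat5ab+/null, which by its genotype label is the one that keeps an allele of both genes. Because the Stat5a and Stat5b signals went against the labels of this pair, the alleles behind the Ido1 difference rest on those labels alone. The gene lies on chromosome 8 and was read by 1 probe set, 1420437_at. Its log2 signal was 6.48, 6.35 and 6.60 in arrays labelled Stat5a-/-, against 8.40, 8.34 and 8.12 in Stat5ab+/null. The groups did not overlap, with 1.52 between the nearest arrays. Means were 6.48 ± 0.12 and 8.29 ± 0.15 (SD, n = 3 each), a difference of -1.81 or 3.50-fold lower in arrays labelled Stat5a-/-. Of the 13 probe sets, 2 were non-overlapping in this pair, Ido1 and 1 for Tdo2, where 17% of all 45037 non-control probe sets were. Over all of them, 0.00666% passed at an adjusted p and 3.17% at an unadjusted p under 0.05 in this pair.

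In the other array set, Ido1 leaned the opposite way. It stood at 6.07, 6.70 and 6.51 in single-Stat5b, against 5.64, 5.78 and 6.17 in single-Stat5a. The lowest single-Stat5b array lay under the highest single-Stat5a array, so the groups overlapped. The difference was 0.56 (SE 0.20, 95% interval 0.13 to 0.99, 1.48-fold) and did not pass over all probe sets (limma adjusted p = 0.217; unadjusted p = 0.0141, where 12.4% of probe sets had an unadjusted p under 0.05). The SE and interval rest on a spread shared by all 12 arrays. With only single-Stat5b and single-Stat5a fitted, the SE was 0.25 (limma adjusted p = 0.690). Under the alternatives tried the difference ran over 0.38 to 0.74 with an adjusted p of 0.0855 to 0.690. By the labels, both comparisons set mice with 1 Stat5b allele more and 1 Stat5a allele less against the others. The difference between these 2 differences was not tested, because Ido1 was chosen on one of them.

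Across the sets, the Ido1 range in single-Stat5b overlapped that of arrays labelled Stat5a-/- (means 6.42 ± 0.32 and 6.48 ± 0.12, a difference of -0.05). Single-Stat5a (5.86 ± 0.28) lay 2.42 below Stat5ab+/null. The order of means was Stat5ab+/null, Stat5a-/-, single-Stat5b and single-Stat5a, and the first step was the one step of this order at which the ranges did not overlap. In single-Stat5a, 2 of the 3 arrays lay below 6.04, the 30th percentile of probe set means, a level under which signal may be background.

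**Figure D1:**
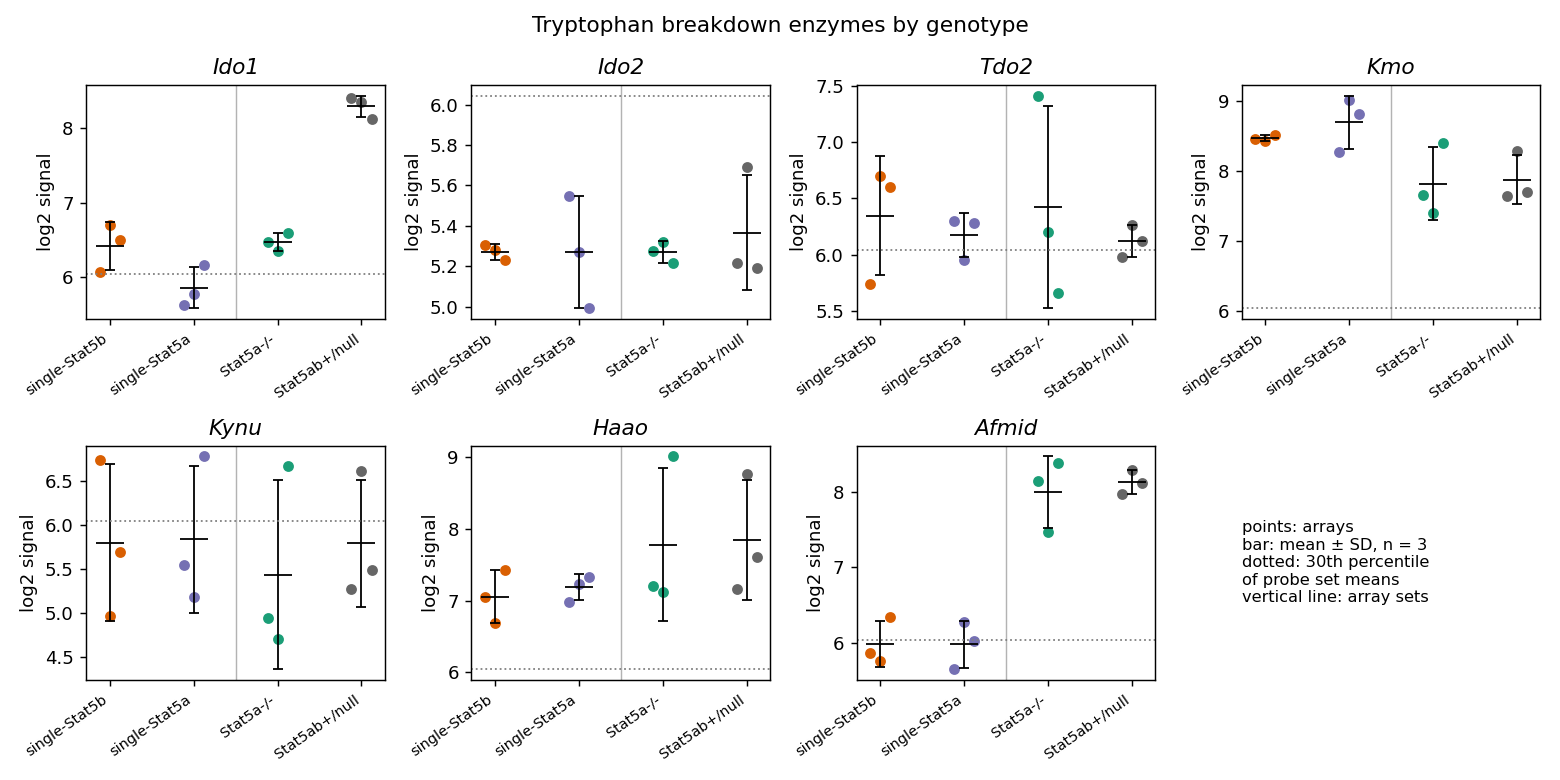
Log2 signal (vertical axis) of the probe set with the highest mean for each of the 7 genes in 4 genotypes (horizontal axis); points are arrays, bars the mean ± SD of 3 arrays, the dotted line is the 30th percentile of probe set means, and the vertical line parts the array sets. Ido1 is high in the 3 Stat5ab+/null arrays (8.12 to 8.40). Haao has 1 high array in both 2-allele genotypes, and Kynu has 1 in each of the 4 genotypes.

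The other enzymes that open the indole ring showed little signal. Ido2 (1425778_at), the neighbour of Ido1 on chromosome 8, ranged over 4.99 to 5.69 in the 12 arrays, below the 30th percentile level in each. Its means were 5.27 ± 0.04 in single-Stat5b, 5.27 ± 0.28 in single-Stat5a, 5.27 ± 0.05 in arrays labelled Stat5a-/- and 5.37 ± 0.28 in Stat5ab+/null, and the ranges of groups next to each other in level overlapped. The single-Stat5b minus single-Stat5a difference was 0.001 (95% interval -0.39 to 0.40; limma adjusted p = 0.999).

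Tdo2, on chromosome 3, was read by 3 probe sets with means of 6.27, 6.02 and 4.55, of which 1 passed the 30th percentile level. That one stood at 7.42, 6.20 and 5.66 in arrays labelled Stat5a-/-, against 5.98, 6.26 and 6.12 in Stat5ab+/null. A single array, Stat5a-/- 1, held the highest value of all 12 in each of the 3 probe sets (7.42, 6.78 and 5.27). The second probe set differed by 0.50 in this pair and its groups did not overlap, by a margin of 0.04. The first stood at 5.74, 6.70 and 6.61 in single-Stat5b, against 6.30, 5.95 and 6.28 in single-Stat5a, with overlap. In that comparison the 3 differed by 0.17, 0.20 and -0.27 (limma adjusted p = 0.913, 0.875 and 0.712). For the third, the groups did not overlap, at a level of 4.34 ± 0.07 against 4.60 ± 0.14, and it was the 1 member of 13 without overlap, where 11.9% of probe sets had none.

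Afmid, which takes the formyl group off the product of these enzymes, lies on chromosome 11, as Stat5a and Stat5b do. Its 4 probe sets disagreed between the array sets. The brightest, 1452944_at, stood at 5.86, 5.76 and 6.34 in single-Stat5b and 5.65, 6.27 and 6.02 in single-Stat5a, against 8.14, 7.47 and 8.38 in arrays labelled Stat5a-/- and 7.97, 8.29 and 8.12 in Stat5ab+/null. All 6 arrays with 1 intact allele lay below all 6 with 2, a mean difference of -2.08. The sets were non-overlapping for 1 of the 13 member probe sets, against 48.8% of all probe sets, counting either direction. A second probe set drawn from the same transcript record, 1428885_at, differed by -0.32 between the sets, with overlap. The other 2 stayed under the 30th percentile level in all arrays. Within each set the genotypes overlapped: the brightest probe set differed by 0.005 between single-Stat5b and single-Stat5a (95% interval -0.54 to 0.55; limma adjusted p = 0.996) and by -0.13 between arrays labelled Stat5a-/- and Stat5ab+/null.

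Kmo (1418998_at, chromosome 1) was above the 30th percentile level in all 12 arrays. It stood at 8.46, 8.43 and 8.51 in single-Stat5b and 8.27, 9.01 and 8.81 in single-Stat5a. Arrays labelled Stat5a-/- had 7.66, 7.40 and 8.40, and Stat5ab+/null arrays 7.65, 8.28 and 7.71. The 1-allele arrays lay 0.73 higher on average, and the sets overlapped. Between single-Stat5b and single-Stat5a it differed by -0.23 (SE 0.27, 95% interval -0.82 to 0.36; limma adjusted p = 0.818), and between arrays labelled Stat5a-/- and Stat5ab+/null by -0.06.

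Haao and Kynu each had single high arrays within a genotype. Haao (1432492_a_at, chromosome 17) stood at 7.20, 7.13 and 9.02 in arrays labelled Stat5a-/-, against 7.16, 8.77 and 7.61 in Stat5ab+/null. It was even across the other set, with 7.05, 6.68 and 7.42 in single-Stat5b and 6.98, 7.24 and 7.33 in single-Stat5a. The brighter Kynu probe set (1430570_at, chromosome 2), whose mean of 5.71 is under the 30th percentile level, reached 6.66 in Stat5a-/- 3 and 6.61 in Stat5ab+/null 2, and also 6.74 in single-Stat5b 1 and 6.77 in single-Stat5a 3. It lay at 4.70 to 5.69 in the other 8 arrays. In single-Stat5b against single-Stat5a, Haao differed by -0.13 (95% interval -1.18 to 0.91) and Kynu by -0.04 (-1.33 to 1.26), with a limma adjusted p of 0.951 and 0.989. The Kynu interval leaves room for more than 2-fold either way. The other Kynu probe set, 1451903_at, stayed under the 30th percentile level in all arrays (4.00 to 5.36) and differed by 0.43 (limma adjusted p = 0.659).

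In the 2-allele set, the arrays with the highest Haao, Kynu and Kmo were those with the highest B cell markers. The mean of 6 B and plasma cell markers was 6.85, 6.92 and 11.11 in Stat5a-/- 1 to 3, against 7.85, 11.53 and 9.56 in Stat5ab+/null 1 to 3. Stat5a-/- 3 and Stat5ab+/null 2 thus held the highest Haao, Kynu and Kmo of their set together with the highest B cell markers, and also the highest means of 6 T cell markers (8.02 and 9.19, against 6.50 to 6.86 in the other 4). They did not stand apart in lymphoid markers alone. The mean of 6 skeletal muscle markers was 10.09 in Stat5a-/- 3 and 9.01 in Stat5ab+/null 2, against 6.22 to 6.72 in the other 4 arrays of the set. NK cell (7.78 and 8.81), dendritic cell (8.33 and 8.97) and neutrophil (7.24 and 7.35) means were also highest in these 2 arrays. Stat5ab+/null 3, with a B cell mean of 9.56 and a muscle mean of 6.22, had 7.61 for Haao and 7.71 for Kmo. In the 1-allele set, the B cell mean was highest in single-Stat5b 1 (8.31) and single-Stat5a 3 (7.86), the same arrays in which Kynu was high. Haao and Kmo did not stand out there. Within their genotypes, single-Stat5b 1 and single-Stat5a 3 also had the highest T cell means (8.55 and 7.72) but the lowest muscle means (7.60 and 9.80). The part of lymphoid tissue, muscle or other cells in these values was not tested, and in bulk tissue more cells of a type cannot be told apart from more RNA per cell. Without Stat5a-/- 3, Haao differed by -0.68 between arrays labelled Stat5a-/- and Stat5ab+/null, and without Stat5ab+/null 2 by 0.40, so either array sets the direction.

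In the 2-allele set, Ido1 differed little between arrays of a genotype with high and low B cell markers. It was 6.60 in Stat5a-/- 3 and 6.35 to 6.48 in the arrays beside it, and 8.34 in Stat5ab+/null 2 against 8.12 and 8.40. In the 1-allele set, Ido1 differed more, and in opposite directions. It was 6.07 in single-Stat5b 1, with the highest B cell mean of its genotype, against 6.70 and 6.51. In single-Stat5a 3, also with the highest B cell mean of its genotype, it was 6.17 against 5.64 and 5.78. Means of 9 dendritic cell markers were 7.96 to 8.33 in arrays labelled Stat5a-/- and 8.03 to 8.97 in Stat5ab+/null, and those of 8 macrophage markers 11.63 to 11.84 in arrays labelled Stat5a-/- and 11.62 to 11.95 in Stat5ab+/null. The part of dendritic cells in the Ido1 difference was not tested. One of the alternatives dropped 1 array of each genotype at once, chosen after seeing the data (single-Stat5b 2, single-Stat5a 2, Stat5a-/- 3 and Stat5ab+/null 2). In the 1-allele set the arrays dropped were not those with the highest B cell means. The Ido1 difference between arrays labelled Stat5a-/- and Stat5ab+/null was then -1.84, a description, since Ido1 was chosen on that pair.

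**Figure D2:**
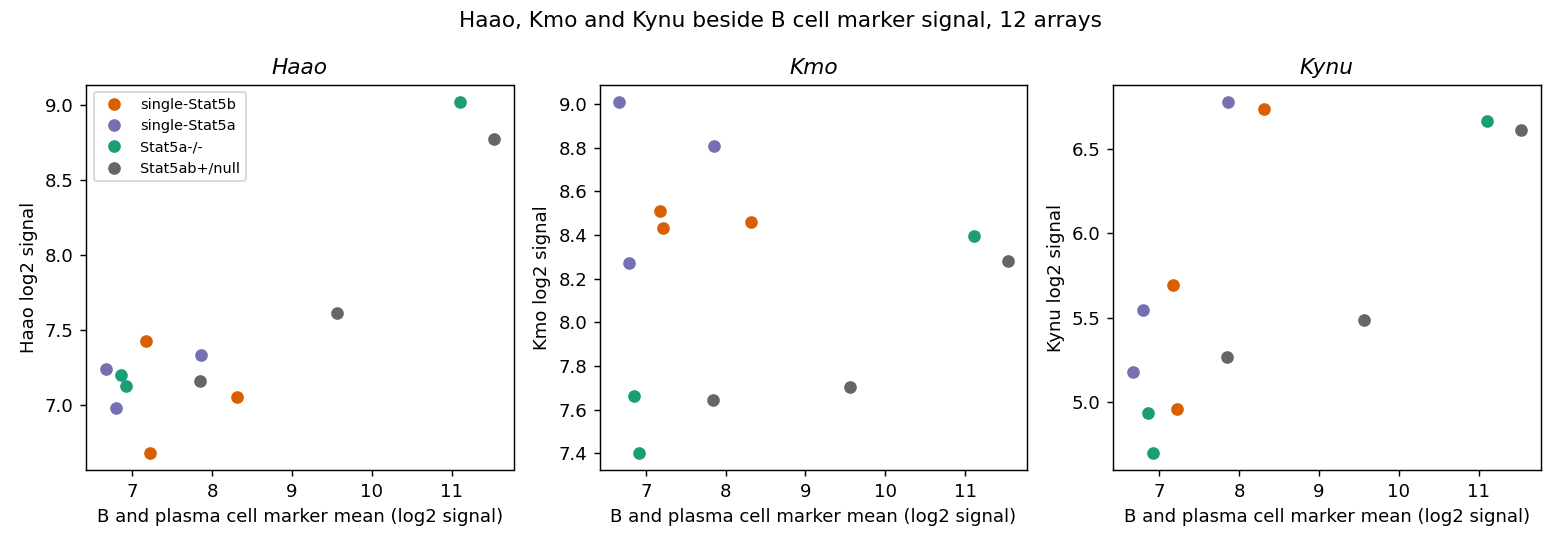
Log2 signal of Haao, Kmo and Kynu (vertical axes) against the mean log2 signal of 6 B and plasma cell markers (horizontal axes) in the 12 arrays, coloured by genotype. Stat5a-/- 3 and Stat5ab+/null 2, with marker means of 11.11 and 11.53, hold the highest Haao values (9.02 and 8.77).

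RefSeq promoter windows were at hand for 4 of the 7 genes (Kmo, Tdo2, Afmid and Haao), and those of Kmo and Haao are shown since these genes were high together in Stat5a-/- 3 and Stat5ab+/null 2. Each is 300 bases, 250 before and 50 after the start, 5′ to 3′ on the gene's strand, build GRCm38.p6. Kmo lies at chr1:175631943-175632242 on the plus strand and Haao at chr17:83846741-83847040 on the minus strand. Capitals mark GAGGAA, the core bound by PU.1, a factor of B cells and macrophages, a motif added after the values were seen.
Kmo: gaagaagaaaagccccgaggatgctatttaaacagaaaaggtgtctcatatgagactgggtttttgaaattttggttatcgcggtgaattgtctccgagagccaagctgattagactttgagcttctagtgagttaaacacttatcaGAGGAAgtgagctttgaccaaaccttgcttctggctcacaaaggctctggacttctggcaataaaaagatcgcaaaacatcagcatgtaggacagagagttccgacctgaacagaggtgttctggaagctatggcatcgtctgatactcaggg
Haao: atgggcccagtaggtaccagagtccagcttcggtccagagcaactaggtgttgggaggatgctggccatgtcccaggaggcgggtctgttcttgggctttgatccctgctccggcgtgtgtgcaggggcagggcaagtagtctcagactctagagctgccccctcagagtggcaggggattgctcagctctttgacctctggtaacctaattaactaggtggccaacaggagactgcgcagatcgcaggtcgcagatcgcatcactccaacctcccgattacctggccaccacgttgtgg
Kmo holds GAGGAA once, starting at base 148 of the window, and Haao, Tdo2 and Afmid hold it on neither strand, while 28.3% of all 32851 windows do. The STAT motif TTCNNNGAA, its form with 1 more base in the spacer and the core of the interferon-stimulated response element were in none of the 4 windows on either strand, and in 8.30%, 6.95% and 3.44% of all windows. That says only that these letters are not in the 4 windows.

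Over the 13 probe sets, 0 passed between single-Stat5b and single-Stat5a (limma adjusted p 0.217 for Ido1 and 0.483 to 0.999 for the other 12), where 2.7% of 45037 probe sets passed, and 1 had an unadjusted p under 0.05. Of the 13, 9 were above 0 with a median of 0.17, beside 53.3% above 0 and a median of 0.02 over all probe sets. In the pair that set Ido1 apart, 4 were above 0 with a median of -0.06, beside 42.3% and -0.03 over all probe sets. Apart from Ido1, the differences in that pair ran over -0.35 to 0.50. Only 6 of the 13 probe sets, from 5 genes, had a mean past the 30th percentile level.

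**Figure D3:**
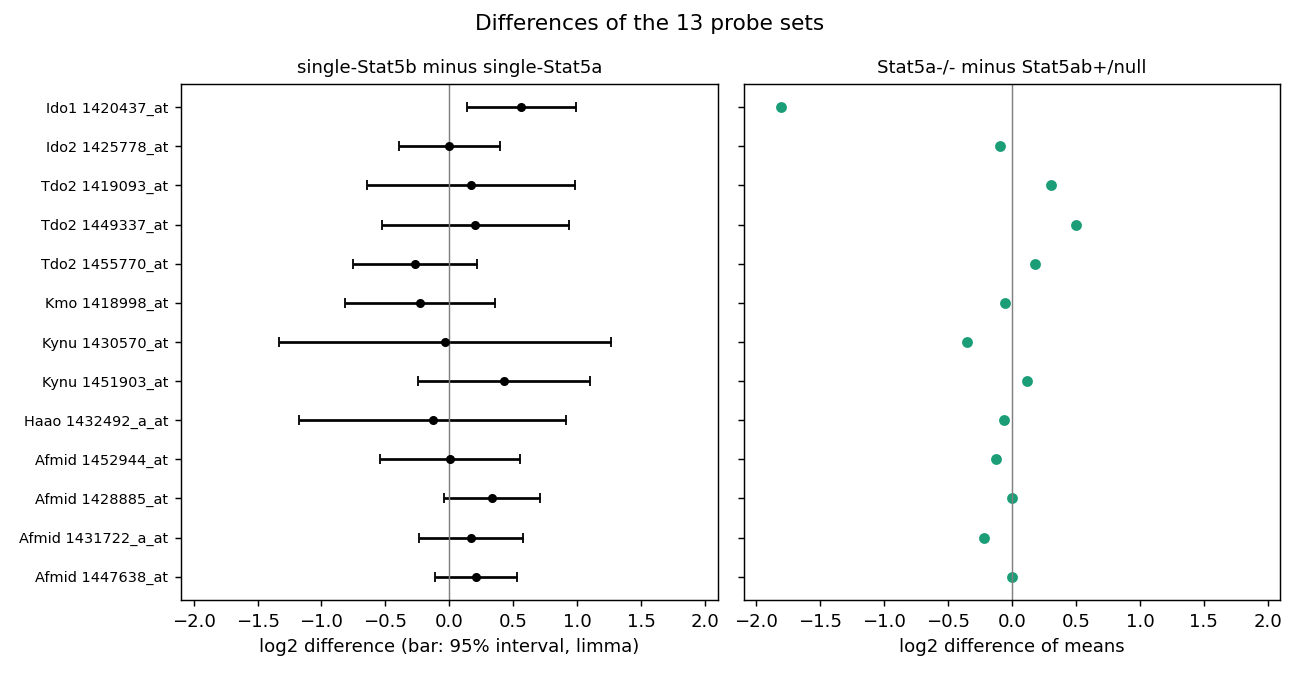
Log2 difference (horizontal axes) of each of the 13 probe sets (vertical axis) for single-Stat5b minus single-Stat5a, with 95% limma intervals, and for Stat5a-/- minus Stat5ab+/null, without a test. Ido1 lies at 0.56 on the left and at -1.81 on the right, where the others lie between -0.35 and 0.50.

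Past Haao, the route to NAD was marked by Qprt, whose 2 probe sets moved in opposite directions. Qprt makes nicotinate mononucleotide from quinolinate. Probe set 1418836_at stood at 8.82, 8.06 and 8.82 in single-Stat5b, against 7.11, 6.76 and 7.04 in single-Stat5a. Probe set 1418837_at stood at 6.98, 6.47 and 7.29 in single-Stat5b, against 8.78, 8.31 and 8.54 in single-Stat5a. The first rose by 1.60 (SE 0.20, 3.03-fold, limma adjusted p = 0.000491) and the second fell by 1.63 (SE 0.20, 3.09-fold lower, limma adjusted p = 0.000465), with no overlap in either. Both calls held in every alternative run, 20 for the first and 19 for the second. Single-Stat5a was the genotype that stood apart: the first probe set averaged 8.12 and 8.17 and the second 7.09 and 6.90 in arrays labelled Stat5a-/- and Stat5ab+/null. Because the probe sets disagree, no direction is given for the gene.

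Read at the brightest probe set of each gene, 1 of 5 measured genes of the rest of the kynurenine route (Kyat1, Kyat3, Aadat, Got2 and Qprt) passed between single-Stat5b and single-Stat5a. That one was Qprt, counted at the probe set that rose, and its other probe set fell. Over all 18193 genes read in this way, 170 rose and 252 fell. The kynurenine aminotransferases Kyat1 and Kyat3 differed by -0.24 and -0.12. Of 11 measured genes that make or use NAD, 0 passed in either direction, with a median of -0.06 beside -0.01 over all genes. The largest difference was in Nmnat3, a mitochondrial enzyme of the last step of NAD synthesis, at -1.03 (limma adjusted p = 0.0579). In arrays labelled Stat5a-/- against Stat5ab+/null, no gene of either list passed, and 1 of 18193 genes did. There 3 of the 11 NAD genes did not overlap, beside 3399 of 18193 over all genes. They were Naprt (-0.39) and Nadsyn1 (-0.24), which make NAD, and Sarm1 (0.37), which consumes it.

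Other fates of tryptophan were read in 10 genes, of which 0 passed in either comparison. Over all 18193 genes, 170 rose and 252 fell between single-Stat5b and single-Stat5a, and 1 passed in the pair that set Ido1 apart. Tph1, the rate-limiting enzyme of serotonin synthesis and known to act in lactating mammary epithelium, had the largest difference in the pair that set Ido1 apart, and in the other direction. It stood at 8.78, 9.80 and 8.55 in arrays labelled Stat5a-/-, against 7.34, 7.56 and 7.51 in Stat5ab+/null, without overlap (difference 1.58, SE 0.39, limma adjusted p = 0.991). Stat5ab+/null was thus the genotype of the 4 with the highest Ido1 mean and the lowest Tph1 mean (7.47 ± 0.12, beside 9.61 ± 0.71 in single-Stat5b and 10.30 ± 0.57 in single-Stat5a). Of the 10 genes, 2 did not overlap between arrays labelled Stat5a-/- and Stat5ab+/null, beside 3399 of 18193 over all genes. Inmt, which methylates tryptamine, differed by -1.24 between single-Stat5b and single-Stat5a (limma adjusted p = 0.0812). Of 9 transporters of tryptophan and kynurenine, 0 passed in that comparison, beside the 170 and 252 over all genes, with Slc43a1 at -0.64 and Slc7a8 at 0.62.

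Kynurenine is a ligand of the aryl hydrocarbon receptor, Ahr. Of 9 measured genes for Ahr, its partners, its targets and the kynurenate receptor Gpr35, 0 rose and 1 fell in single-Stat5b against single-Stat5a. Over all 18193 genes, 170 rose and 252 fell. The one of the 9 that fell was Cyp1a1, the receptor's classic target, with 7.11, 7.00 and 6.72 in single-Stat5b, against 8.19, 8.35 and 8.17 in single-Stat5a, without overlap. The difference was -1.29 (SE 0.21, limma adjusted p = 0.00384), and with the 4 arrays left out it no longer passed (limma adjusted p = 0.0623). Other targets did not pass: Cyp1b1 differed by -0.11, Tiparp by -0.04 and Nqo1 by -0.08, and Ahr itself by -0.01. In arrays labelled Stat5a-/- against Stat5ab+/null, Cyp1a1 differed by -0.08, and Arnt, the partner of Ahr, by 0.66 without overlap. Of the 9 genes, 2 did not overlap there, beside 3399 of 18193 over all genes.

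**Figure D4:**
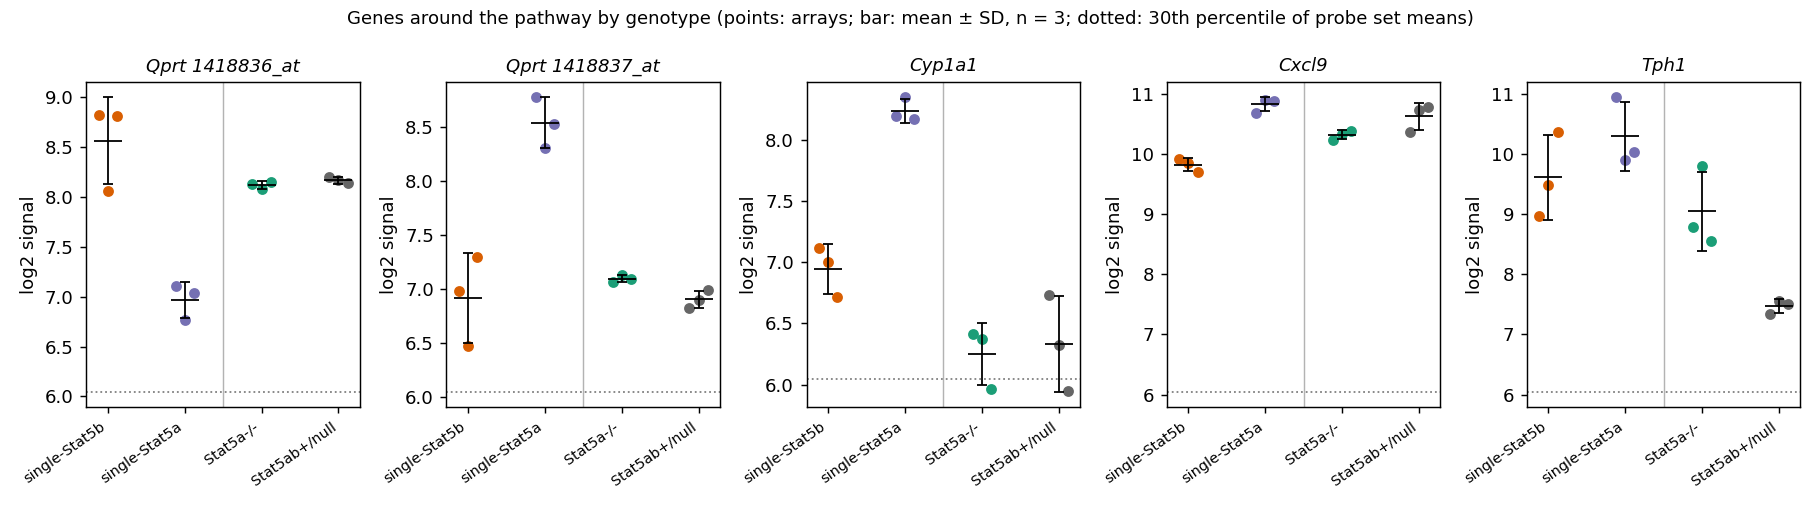
Log2 signal (vertical axes) of both Qprt probe sets, Cyp1a1, Cxcl9 (brightest probe set) and Tph1 in 4 genotypes (horizontal axes); points are arrays and bars the mean ± SD of 3 arrays. Single-Stat5a stands apart for both Qprt probe sets, in opposite directions, and for Cyp1a1 (8.17 to 8.35).

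Genes that respond to interferon gamma, the known inducer of Ido1, leaned lower in single-Stat5b than in single-Stat5a. Other cell markers also differed in this comparison, with 0 called in these lists: skeletal muscle had 0 of 6 above 0 (median -2.52), endothelium 1 of 6 (median -0.61, 4 without overlap), adipocytes 1 of 5 (median -0.54) and luminal epithelium 8 of 8 (median 0.35). Over all 18193 genes, 170 rose, 252 fell and 2073 did not overlap. Macrophage markers had 2 of 8 above 0 (median -0.20). The part of these cells in the interferon values was not tested, nor was the part of interferon gamma in the Ido1 values. Of 20 interferon gamma genes measured, 0 rose and 1 fell, and 6 did not overlap between the groups. In this list 2 were above 0 and the median was -0.29, beside 48.4% of genes above 0 and a median of -0.01. The one that fell was Cxcl9, a chemokine for T cells, by 1.00 at its brightest probe set (SE 0.16, limma adjusted p = 0.00262), and it fell by 2.46 at the other (limma adjusted p = 3.63e-05). Cxcl10, a related chemokine, differed by -1.18 and did not pass (limma adjusted p = 0.179). The first of the Cxcl9 calls was lost in a fit of the 2 groups alone (limma adjusted p = 0.0607) and with the 4 arrays left out (0.0535). Between arrays labelled Stat5a-/- and Stat5ab+/null, 0 of 20 passed, where 1 of 18193 genes did. In the list 2 were above 0 and the median was -0.22, beside 37.6% and -0.06 over all genes. The largest were Cxcl10 at -0.68 and Irf8, a factor of myeloid cells, at -0.65, both with overlap. In that pair, Irf1, a direct activator of interferon targets, differed by -0.24, and Iigp1, an immunity-related GTPase, by -0.38. Ifng itself averaged 4.67 and 4.94 there, below the 30th percentile level. Immune cell markers leaned lower in that pair too: 0 were above 0 among B and plasma cell (median -1.47), T cell (-0.61), NK cell (-0.31), neutrophil and mast cell markers. Macrophages had 1 of 8 above 0 and dendritic cells 2 of 9. Basal epithelium (5 of 6) and skeletal muscle (6 of 6) leaned the other way. The part of these cells was not tested.

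Type I interferon genes, of interest because the labels speak of PolyIC, gave 0 rises and 1 fall among 10 measured in single-Stat5b against single-Stat5a, with Ifit3 at -1.27 (limma adjusted p = 0.00170). Of the 10, 1 was above 0, the median was -0.85 and 5 did not overlap between the groups. Over all 18193 genes, 170 rose, 252 fell, 48.4% were above 0, the median was -0.01 and 2073 did not overlap. Rsad2, which blocks viral replication, differed by -1.37 and did not pass (limma adjusted p = 0.0936). In arrays labelled Stat5a-/- against Stat5ab+/null, the list had a median of -0.10 and 0 passed, beside -0.06 and 1 of 18193 over all genes. Of 13 regulators linked to Ido1, 0 passed in either comparison. Tgfb1, a cytokine known to sustain Ido1 in dendritic cells, had the largest difference among them in the Stat5a-/- and Stat5ab+/null pair, at -0.83 without overlap, and differed by 0.11 between single-Stat5b and single-Stat5a. In the Stat5a-/- and Stat5ab+/null pair, 2 of the 13 did not overlap, beside 3399 of 18193 over all genes.

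The genes whose pattern was most like that of Ido1 were sought by Pearson r over the 12 arrays after each array set's mean was taken off, among 14197 other genes at their brightest probe set. The 8 highest were Jkamp (0.96), Zranb1 (0.89), Lrba (0.88), 1700008J07Rik (0.87), Kif5c (0.87), Prkar2a (0.86), Nek7 (0.86) and Dnajc13 (0.85). All 8 were lower in arrays labelled Stat5a-/- than in Stat5ab+/null, which choosing them by this measure favours, with differences of -0.68 to -0.16 where Ido1 had -1.81. These r rest on the same 12 arrays and on the Ido1 values that set the pair apart, and are a description. None of these 8 was among the 8 highest when genotype means were taken off or when either set of 6 arrays was used alone.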

How the data were processed

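Mammary tissue RNA of 12 mice was hybridized as biotin-labelled cRNA to Affymetrix arrays, per the labels' protocols. Each value the authors deposited is the log2 signal of a probe set on 1 array. RMA and Partek are named in the submitters' processing notes, without versions or settings. Genotypes came from the labels, and replicates were numbered in record order. Symbols came from the platform's annotation (34945 probe sets with 1 gene, 932 with several, 9160 with none, 64 controls), updated through gene IDs. The members and gene lists were chosen with earlier results of these data known.

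All 45037 non-control probe sets, without a filter, entered a linear model (limma 3.58.1, R 4.3.3), with 1 mean per genotype, a spread shared by 12 arrays, 2-sided moderated tests and Benjamini-Hochberg adjustment over all probe sets (called under 0.05). The code was tested on simulated data. An exact permutation of 3 arrays against 3 reaches p = 0.1 at the least. The labels do not say how independent the mice are, so p-values measure the spread between these samples. Gene lists (8 of pathways, 95 genes, 87 measured, and 13 of cell type markers, 84 genes, 78 measured, of which the lists whose levels bear on a member are given) were read at each gene's probe set of highest mean. Named genes were all members, the 8 genes most like Ido1, and up to 3 per list, called ones first and then the largest differences. Others named beside them (such as Irf1, Kyat3 and Ahr) were chosen for their role after their values were seen. Alternatives were a 30th percentile filter, 1 probe set per gene, quantile normalization, median centring, a trended robust variance, array weights, fits of only the groups compared, each array left out and, added after seeing the data, 4 arrays left out together. Array signals have no depth, and the number of arrays limits the precision.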

Additional observations from a re-analysis of the deposited data

How the results depend on the processing

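In all 20 alternatives, Ido1 stayed above 0 for single-Stat5b minus single-Stat5a (0.38 to 0.74), and 0 of them called it. For arrays labelled Stat5a-/- minus Stat5ab+/null it ran over -1.89 to -1.75. Ido1 was chosen on that pair, whose nearest arrays lay 1.52 apart, so its kept direction there is a description and no support. The count of probe sets called between single-Stat5b and single-Stat5a, 1217, was 310 with 1 probe set per gene, where fewer were tested, 545 with only these groups fitted, and 939 to 2740 with 1 array left out, the highest without single-Stat5b 3. Between arrays labelled Stat5a-/- and Stat5ab+/null, 3 were called (1429 at an unadjusted p under 0.05), 1 with 1 probe set per gene, 346 with array weights, 5 with only these groups, 0 with 4 arrays left out (1429 unadjusted) and 0 to 5 with 1 array left out: 0 by limma without Stat5a-/- 2 or 3, Stat5ab+/null 1 or 2 or single-Stat5b 3 (842 to 2012 unadjusted), 1 without Stat5a-/- 1, Stat5ab+/null 3 or single-Stat5b 2, and 5 without single-Stat5a 2. The cause was not tested. Tph1 passed there with array weights alone (1.94, adjusted p = 0.0261).

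Uncalled differences near 0 between single-Stat5b and single-Stat5a turned sign. Ido2 was -0.029 with quantile normalization, -0.069 with array weights and -0.0042 with 4 arrays left out. Tdo2 was -0.19 and -0.092 with array weights and -0.12 and -0.30 with 4 arrays left out (2 probe sets). Kynu was 0.53 with array weights and 0.057 with 4 arrays left out, Haao 0.083 with 4 arrays left out, and Afmid -0.030 with quantile normalization. With 1 array left out, the ranges were -0.14 to 0.14 for Ido2, -0.0063 to 0.48 and -0.074 to 0.56 for Tdo2, -0.51 to 0.44 for Kynu, -0.32 to 0.055 for Haao and -0.17 to 0.15 for Afmid. Between arrays labelled Stat5a-/- and Stat5ab+/null, Qprt turned to 0.014 with quantile normalization, Cyp1a1 to 0.056 with 4 arrays left out (-0.27 to 0.12 with 1 left out), and the second Cxcl9 probe set to -0.0090 with 4 left out (-0.057 to 0.38 with 1 left out). With 1 array left out in that pair, uncalled member values also ran across 0: Ido2 over -0.18 to 0.07, Tdo2 over -0.19 to 0.69 and -0.09 to 0.36 (2 probe sets), Kmo over -0.34 to 0.15, Kynu over -0.97 to 0.06 and -0.26 to 0.38, Haao over -0.68 to 0.40, and Afmid over -0.32 to 0.14, -0.04 to 0.04 and -0.05 to 0.07 (3 probe sets). Of the 8 genes most like Ido1, 0 were shared under each of the 3 alternatives. No paired analysis was possible because the labels give the groups no shared replicate numbers. Probe sets under the 30th percentile level, 7 of the 13, may lie at background.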
